A study of Mus musculus with 8 samples.

Results

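Of the 17418 adenines called as modified in the 4 lists of the series, 2094 lay inside an unbroken run of 4 or more adenines and were not followed by G or C. Members were chosen by sequence alone. The called adenine is base 21 of the 41-base context that the lists give for each call, and base 22 had to be A or T, so the last adenine of a run counted only where T followed it. WT L held 515 members among 3862 calls, KO L held 361 of 3044, WT S held 911 of 7142 and KO S held 307 of 3370. The 2094 members were 2049 distinct positions in 1905 distinct runs, so some members share a run and 1 stretch of DNA. Just outside the rule lay 443, 389, 884 and 394 calls in runs of 3 followed by A or T, and 29, 24, 42 and 28 calls at the last A of a longer run before G or C (values of the 4 lists are always given in the order WT L, KO L, WT S, KO S).

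TT2 cells, a mouse embryonic stem (ES) cell line of a C57BL6 x CBA background, were cultured without feeder cells and harvested at passage 5 to 10. Wild-type (WT) cells were compared with Alkbh1 knockout (KO) cells, and how many KO clones were used is not given in the sources used here. All groups were treated alike: native chromatin immunoprecipitation with a customized antibody to the histone variant H2A.X, then single-molecule real-time (SMRT) sequencing of a long (L) and a short (S) DNA part. The 8 samples were 2 replicates of each genotype and part, and both replicates of a group share 1 list, so that no value below has a replicate check and no p-value is given. The lists hold no expression values, so the genotype and cell type of the labels could not be checked in them. Intervals are at 95%, cover counting error only and treat calls as independent.

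N6-methyladenine is a modified base that is common in bacterial DNA and whose presence and amount in mammalian DNA are debated. Alkbh1 encodes a dioxygenase of the AlkB family that has been described as removing it. In SMRT sequencing a polymerase copies a single DNA molecule, and the pause before each base, the inter-pulse duration (IPD), is longer at some modified bases. A run of adenines is a stiff stretch of DNA with a narrow minor groove, and long runs in mammalian genomes often stem from the poly(A) tails that retrotransposons carry when they insert. Because every base of a run looks alike, an alignment cannot always place an inserted or deleted base within it.

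The contexts below show the short runs that recurred between lists or had the highest scores. Each sequence is the deposited 41-base context, read 5′ to 3′ on the strand of the called adenine, with the unbroken run in capitals and the called adenine at base 21. Coordinates are mm10.
chr9:35305272-35305312, plus strand, run of 5, first A called in all 4 lists: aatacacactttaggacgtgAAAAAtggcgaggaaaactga
chr9:35305274-35305314, plus strand, the same run, 3rd A called in all 4 lists: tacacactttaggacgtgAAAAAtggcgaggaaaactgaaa
chr14:19418027-19418067, minus strand, run of 4, first A called in all 4 lists: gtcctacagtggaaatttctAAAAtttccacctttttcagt
chr14:19417645-19417685, plus strand, run of 6, 3rd A called in all 4 lists: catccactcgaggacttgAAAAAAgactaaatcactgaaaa
chr14:19419073-19419113, plus strand, run of 4, second A called in all 4 lists: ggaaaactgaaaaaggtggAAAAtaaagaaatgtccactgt
chr14:19418127-19418167, plus strand, run of 6, first A called in all 4 lists: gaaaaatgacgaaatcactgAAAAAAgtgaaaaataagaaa
chr10:45817818-45817858, plus strand, D030045P18Rik, run of 4 with the highest score outside dense windows: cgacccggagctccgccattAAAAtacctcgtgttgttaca
chr10:14611302-14611342, plus strand, run of 6 with the highest score outside dense windows: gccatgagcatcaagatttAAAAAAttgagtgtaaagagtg

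The next contexts show long runs, chosen because they held the most called adenines in a single run or were among the longest of their list.
chr17:66349665-66349705, plus strand, Mtcl1, run of 26, 5 adenines called in KO L: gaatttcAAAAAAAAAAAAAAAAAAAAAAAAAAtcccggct
chr2:84826665-84826705, minus strand, Smtnl1, run of 28, 4 adenines called in WT S: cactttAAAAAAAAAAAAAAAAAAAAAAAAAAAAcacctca
chr11:64985272-64985312, minus strand, Elac2, run of 17, 4 adenines called in WT S: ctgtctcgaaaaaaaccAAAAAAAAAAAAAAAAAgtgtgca
chr13:97214081-97214121, plus strand, no gene, run of 22, 4 adenines called in WT S: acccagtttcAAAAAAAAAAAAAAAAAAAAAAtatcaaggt
chr8:12495734-12495774, plus strand, no gene, run of at least 42, 5 adenines called in WT S: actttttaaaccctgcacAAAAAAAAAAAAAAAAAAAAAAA
chr11:22593260-22593300, plus strand, no gene, run of 30, called in WT L: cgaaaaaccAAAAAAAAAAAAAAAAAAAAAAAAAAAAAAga
chr5:72668307-72668347, plus strand, Nipal1, run of 30, called in KO L: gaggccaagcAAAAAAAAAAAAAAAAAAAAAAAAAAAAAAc

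Over all calls, adenines in runs were called about as often as, or less often than, nearby adenines met the rule. This depended on a few windows dense in calls, on the score, on the coverage and on the background adenines used. Members made up 13.3% of WT L calls (exact interval 12.3% to 14.4%), 11.9% of KO L calls (10.7% to 13.1%), 12.8% of WT S calls (12% to 13.6%) and 9.11% of KO S calls (8.16% to 10.1%). Depth at uncalled bases is unknown, so the other adenines at bases 5 to 37 of the same contexts, on the same strand and outside the run of the called base, stood in for the sequenced DNA. Of these nearby adenines 13.7%, 13.8%, 13.6% and 12.9% met the same rule. The member share was therefore 0.970 (interval 0.893 to 1.05), 0.859 (0.777 to 0.946), 0.937 (0.881 to 0.995) and 0.707 (0.633 to 0.786) times the nearby share. These intervals, here and below, take the nearby share as exact and hold only the counting error of the member share. By them the member share was below the nearby share in KO L, WT S and KO S, with KO S lowest. In WT S the interval ended close to 1.

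**Figure D1:**
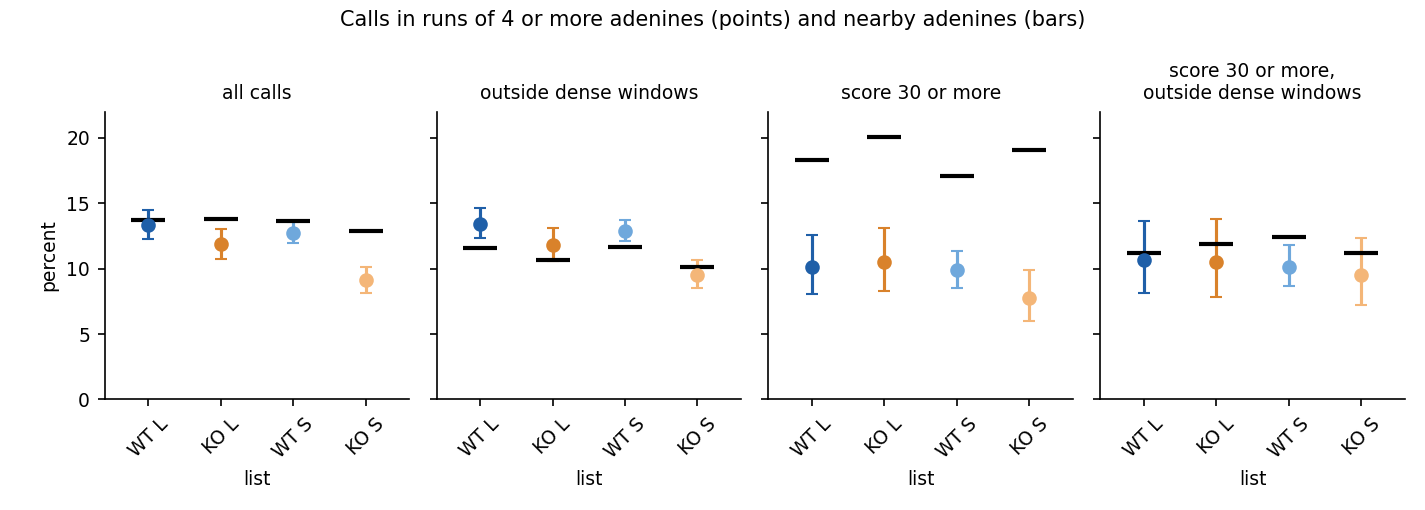
Share of calls inside runs of 4 or more adenines (points, percent of calls, bars are exact 95% intervals) and share of nearby adenines that meet the same rule (black bars), for the 4 lists and 4 subsets of calls. Over all calls KO S lay farthest below its nearby adenines (9.11% against 12.9%), and at a score of 30 or more all 4 lists lay below theirs, by less once the dense windows were left out.

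Dense windows, here the 8 windows of 100 kb that held 10 or more calls in any list, carried 45, 44, 63 and 20 of the members. They lay on chromosomes 2, 7, 8, 9 and 14 and on 2 unplaced scaffolds. As background, mouse major satellite, an A-rich tandem repeat of pericentromeric DNA, is only partly assembled, so reads from many copies can pile up on a few places. Without these windows the ratio to nearby adenines was 1.16 (1.07 to 1.26), 1.11 (0.996 to 1.23), 1.11 (1.04 to 1.18) and 0.944 (0.843 to 1.05). It thus lay above 1 beyond counting error in WT L and WT S, and the deficits of KO L and KO S no longer went beyond it. This rests on a background without the called A's own run. With that run included, the ratio over all calls was 0.681 in WT L and 0.661 in WT S. It was not computed that way for the subsets of calls given here. At a score of 30 or more, on a scale where 20 is the lowest value listed, members were 10.2%, 10.5%, 9.87% and 7.77% of calls while 18.3%, 20.02%, 17.1% and 19% of nearby adenines met the rule. With both restrictions, the shares were 10.7%, 10.5%, 10.2% and 9.54% against 11.2%, 11.9%, 12.5% and 11.2% nearby, and the ratio was below 1 beyond counting error in WT S alone (0.815, 0.695 to 0.949). At coverage of 25 or more outside dense windows it was 1.81 (1.26 to 2.47), 0.821 (0.483 to 1.27), 1.67 (1.46 to 1.91) and 0.841 (0.531 to 1.25), so score and coverage did not move it the same way. The plot of member shares and nearby shares shows these 4 settings side by side.

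Runs around members were longer than runs around nearby adenines, a set that leaves out the called A's own run. The uncalled adenines of members' runs are thus missing from the nearby shares. Run lengths were not compared with them included, so the shares below cannot say how much of the gap this makes. Runs of 6 or more held 40.4% of WT L members (exact interval 36.1% to 44.8%), 35.7% of KO L members (30.8% to 40.9%), 38.1% of WT S members (34.9% to 41.3%) and 29.6% of KO S members (24.6% to 35.1%). Among nearby adenines that met the rule the shares were 16.5%, 16.1%, 20.1% and 14.9%. Runs of exactly 4 held 209, 155, 410 and 157 members, or 40.6%, 42.9%, 45.01% and 51.1% of them, against 57.3%, 57.5%, 55.1% and 59.7% nearby. Runs of 5 held 98, 77, 154 and 59 members.

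The gap to nearby adenines was also wide for runs of 10 or more. These held 109, 72, 186 and 43 members, which is 21.2%, 19.9%, 20.4% and 14.01% of the members of each list, against 4.08%, 2.78%, 3.83% and 3.71% of nearby adenines. A nearby run cannot be seen beyond the end of the 41-base context, so this part of the comparison is also limited by the window. Nearby runs of 6 to 9 that reach an end of the context are cut short too and then count as shorter. This class also stood higher among members in WT L (19.2% against 12.4% nearby) and in KO S (15.6% against 11.2%). The exact intervals reached the nearby share in KO L (15.8%, 12.2% to 19.97%, against 13.4%) and WT S (17.7%, 15.2% to 20.3%, against 16.2%). Runs of 20 or more held 31, 28, 64 and 11 members.

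**Figure D2:**
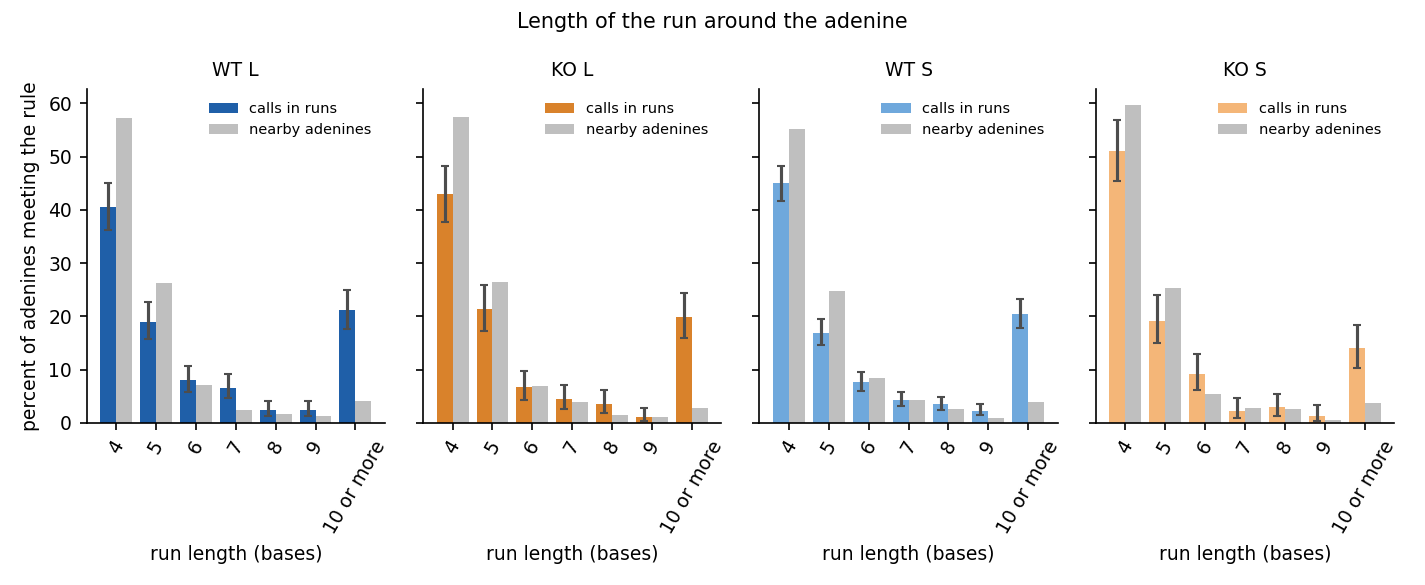
Length of the adenine run (bases) around members (coloured bars, percent of members, error bars are exact 95% intervals) and around nearby adenines that meet the rule (grey bars), in each list. Runs of 4 were less frequent among members than nearby in each list, and runs of 10 or more were more frequent. Nearby adenines leave out the called A's own run. Nearby runs are cut at the end of the context, and member runs are centred in it.

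Over members of all run lengths, the first adenine was called more often than an even spread over the allowed places would give, in 3 of the 4 lists. The first A held 140 of 515 members in WT L (27.2%, exact interval 23.4% to 31.2%), where an even spread gives 20.4%. It held 92 of 361 in KO L (25.5%, 21.1% to 30.3%, against 20.97%) and 254 of 911 in WT S (27.9%, 24.99% to 30.9%, against 20.9%). KO S was the exception, with 72 of 307 members at the first A (23.5%, 18.8% to 28.6%), and the even share of 22.7% lay inside that interval. KO minus WT for this share was -1.70 percentage points in L (Newcombe interval -7.52 to 4.29) and -4.43 in S (-9.75 to 1.35), so neither difference went beyond counting error.

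Runs of 4 held the most calls, though the first A did not stand out most there: among members the ratio to the even share was 1.34, 1.25, 1.31 and 0.896 in runs of 4, 1.43, 1.09, 1.49 and 1.52 in runs of 5, and 1.45, 1.65, 1.60 and 1.04 in runs of 6 to 9. In KO L and KO S the exact interval of the first-A share held the even share in each of these classes. In WT L it did so in runs of 6 to 9 only, and in WT S in no class. Over all calls in whole runs of 4, whatever base followed, the first A held 79 of 228 calls in WT L, 55 of 169 in KO L, 154 of 439 in WT S and 41 of 180 in KO S. These are 34.6%, 32.5%, 35.1% and 22.8%, where each place would get 25% under an even spread. The third A was the least called in WT L (18.4%), KO L (20.7%) and WT S (20.05%), and the most called in KO S (54 of 180, 30%). In runs of 5 the first A held 30.2%, 22.4%, 32.1% and 31.7% of calls against 20%, so in KO S the first A was ahead there, and in runs of 6 the lists held 42, 24, 73 and 29 calls, too few to order the places.

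**Figure D3:**
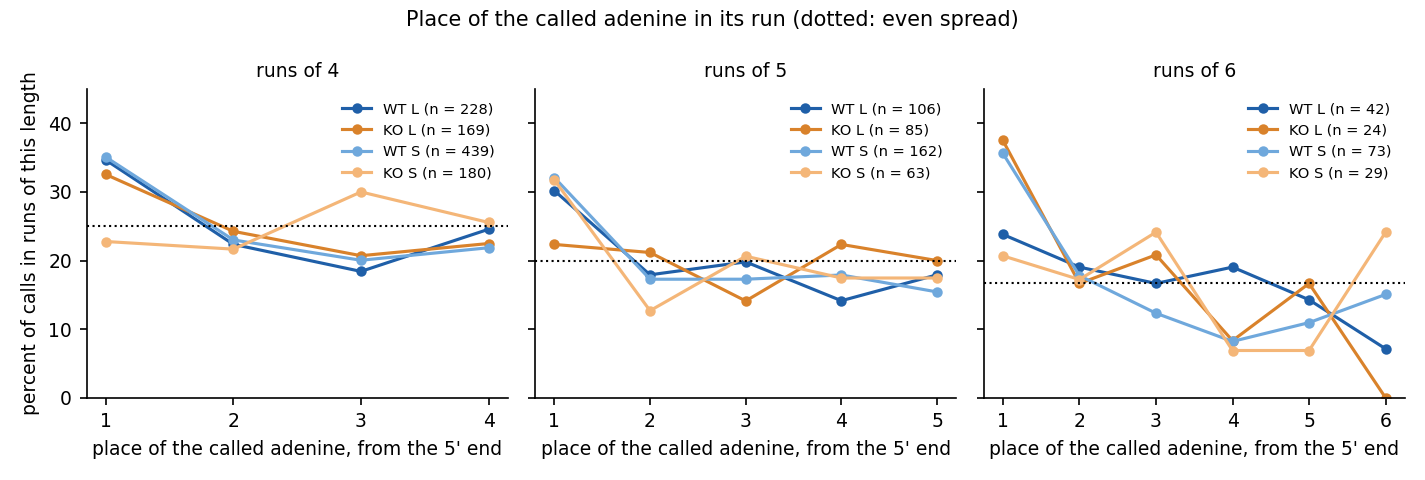
Place of the called adenine in whole runs of 4, 5 and 6, counted from the 5′ end (x axis), as percent of the calls in runs of that length (y axis), for each list with its number of calls. The dotted line is an even spread; in runs of 4 the first place held 34.6%, 32.5% and 35.1% in WT L, KO L and WT S, and 22.8% in KO S.

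In long runs the first adenine was not favoured. Of members in runs of 10 or more, 6 of 109, 3 of 72, 7 of 186 and 3 of 43 were at the first A, or 5.50%, 4.17%, 3.76% and 6.98%, against even shares of 7.34%, 6.83%, 6.83% and 7.09%. In long runs that were seen whole, the middle part held 49 of 106, 35 of 68, 101 of 175 and 21 of 39 members when each run was cut into 3 equal parts. The first part held 30, 17, 45 and 9 of them, and the last part held 27, 16, 29 and 9. Runs not seen whole held 3, 4, 11 and 4 members and were left out, which falls on calls near an end of a very long run. The rule also bars the last A before G or C, so the end parts are lowered by the method. The median called place was the 8th, 7th, 8th and 7th adenine, in runs of median length 14, 15, 15 and 14.

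The other end of the run depended on the base that followed. Where T followed the run, the last A held 21.8%, 20.5%, 22.9% and 26.9% of calls in whole runs of 4 or more, close to the even shares of 20.1%, 20.3%, 20.4% and 21.4%. Where G followed, a case that the rule leaves out at the last A, it held 11 of 153 calls in WT L (7.19%, exact interval 3.64% to 12.5%), 12 of 113 in KO L (10.6%, 5.61% to 17.8%) and 18 of 297 in WT S (6.06%, 3.63% to 9.41%). The even shares were 16.5%, 16.4% and 16.4%, so in WT L and WT S the last A before G was called less than the places before it. In KO S it held 15 of 88 (17.05%, 9.87% to 26.6%) against 18.4%, with no such deficit. Before C the last A held 13.2%, 12.4%, 11.1% and 13.3% against 18.1%, 19.6%, 19.3% and 20.8%.

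The base before the run differed too. Runs with a member were preceded by G in 40.04%, 36.5%, 36.6% and 37.6% of cases, whereas 49.5%, 52.6%, 45.7% and 52.4% of the other whole runs of 4 or more in the same contexts were. T preceded 36.9%, 38.6%, 35.7% and 36.9% of the runs with a member, against 29.3%, 28.8%, 28.9% and 26.7%. Both comparisons include the dense windows and were not repeated without them. The surroundings of members were richer in A than those of other calls. Outside the run itself A made up 35.3%, 36.3%, 34.3% and 34.2% of bases, against 28.9%, 28.6%, 28.9% and 28.3% around other calls followed by A or T. Another run of 4 or more A stood in 44.5%, 44.3%, 40.7% and 41.4% of member contexts, against 27.1%, 26.4%, 26.3% and 26%. Outside dense windows these shares were 40%, 38.2%, 37.3% and 38.3%, against 23.3%, 22%, 23.3% and 21.5%.

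Calls in adenine runs were a smaller share of the KO list than of the WT list in the S part. KO minus WT was -3.65 percentage points in S (12.8% to 9.11%, Newcombe interval -4.87 to -2.38) and -1.48 in L (13.3% to 11.9%, -3.04 to 0.11), where it did not go beyond counting error. In S every class of run length had a lower share in KO. Runs of 4 went from 5.74% to 4.66% of calls, runs of 5 from 2.16% to 1.75%, runs of 6 to 9 from 2.25% to 1.42% and runs of 10 or more from 2.60% to 1.28%. The intervals of the differences excluded 0 for runs of 4 (-1.08, -1.95 to -0.16), runs of 6 to 9 (-0.83, -1.34 to -0.27) and runs of 10 or more (-1.33, -1.84 to -0.77), and included it for runs of 5 (-0.41, -0.94 to 0.19). Outside dense windows the interval for runs of 4 included 0 as well (-0.75, -1.68 to 0.24), while those for runs of 6 to 9 (-0.82, -1.36 to -0.23) and of 10 or more (-1.36, -1.92 to -0.74) did not. Over all calls the KO share was 0.812, 0.812, 0.632 and 0.490 times the WT share in runs of 4, 5, 6 to 9 and 10 or more. Outside dense windows it was 0.867, 0.793, 0.640 and 0.512 times the WT share. A difference between the classes was not tested.

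The rule leaves out calls before G and C, so the shares were also taken of the calls followed by A or T. They were 20.1%, 19.2%, 19.3% and 15.98%, and KO minus WT was -3.33 points in S (-5.27 to -1.30) and -0.92 in L (-3.26 to 1.47). Outside dense windows the differences were -3.38 in S (-4.68 to -2.03) and -1.64 in L (-3.29 to 0.04). Shorter runs followed by A or T also had lower shares in KO S: lone adenines went from 22.9% to 19.9% of calls, runs of 2 from 18.01% to 16.3% and runs of 3 from 12.4% to 11.7%, or 0.870, 0.903 and 0.945 times the WT share. The intervals of these differences excluded 0 for lone adenines (-4.63 to -1.30) and runs of 2 (-3.26 to -0.19) and included it for runs of 3 (-1.99 to 0.67), so a lower share was not particular to long runs. In L lone adenines differed by -4.45 points (-6.35 to -2.53). In WT, S minus L was -0.58 points (-1.92 to 0.73), and in KO it was -2.75 (-4.26 to -1.25).

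**Figure D4:**
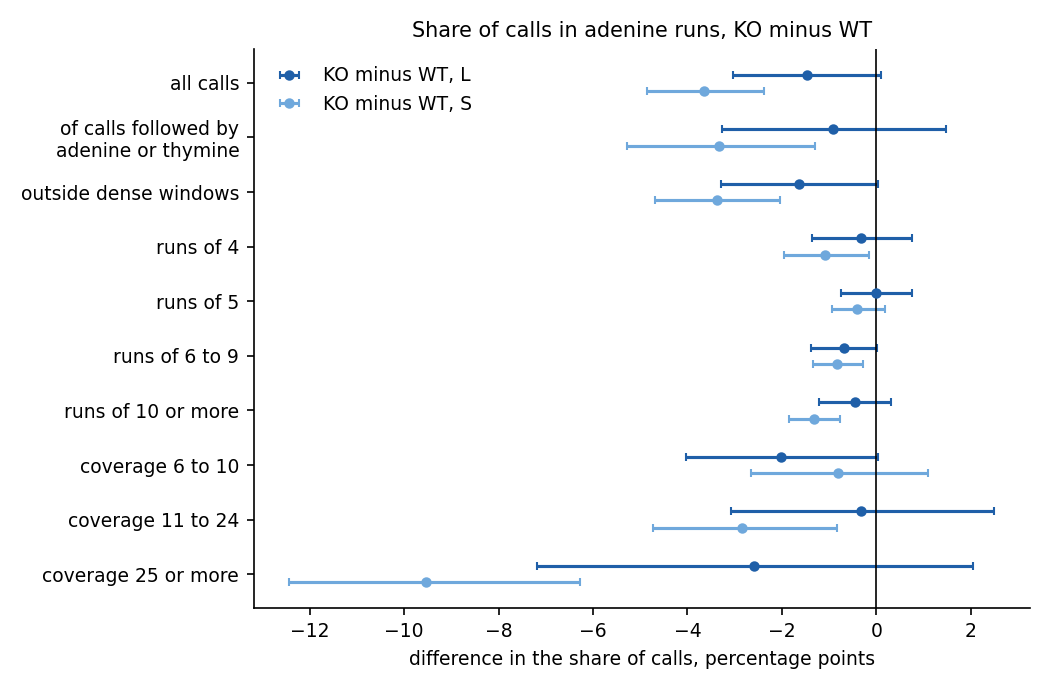
KO minus WT difference in the share of calls inside adenine runs (x axis, percentage points, bars are Newcombe 95% intervals) in L and S, for all calls, for calls followed by A or T, outside dense windows, by run length and by coverage. In S the intervals lie below 0 except for runs of 5 and coverage of 6 to 10; in L all of them reach 0.

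Coverage, the depth that the lists give at each call, moved with this difference. In WT S the member share was 9.08% at coverage 6 to 10, 13.4% at 11 to 24 and 17.1% at 25 or more (227 of 1331 calls). In KO S it was 8.27%, 10.5% and 7.52% (38 of 505), so the difference was -0.81 points (-2.64 to 1.09) at the lowest coverage and -9.53 (-12.4 to -6.27) at the highest. Outside dense windows the highest class held 172 members of 814 calls in WT S (21.1%) and 21 of 186 in KO S (11.3%). Over all calls the median coverage was 11, 11, 14 and 12, and coverage at uncalled bases is unknown. The part of depth in the difference was not tested. Among strong calls the difference in S no longer excluded 0: it was -2.09 points (-4.34 to 0.39) at a score of 30 or more and -2.11 (-5.12 to 1.27) at an identification score of 20 or more, a second score that the lists give for the kind of modification. At a score of 30 or more and outside dense windows it was -0.61.

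The kinetic signal of members was close to that of other calls in 3 lists and lower in WT S. The median IPD ratio, the observed pause over the predicted one, was 2.48, 2.45, 2.33 and 2.54 for members and 2.46, 2.505, 2.48 and 2.54 for other calls followed by A or T. The share of members above the median of their list was 44.9%, 43.5%, 39.0% and 42.0%, against 44.2%, 46.5%, 46.4% and 43.9% of those other calls. The difference went beyond counting error in WT S alone (-7.47 points, -11.0 to -3.90), with intervals of -4.15 to 5.43 in WT L, -8.63 to 2.72 in KO L and -7.82 to 4.17 in KO S. The other calls were more often followed by T than members were. With the next base held at A the difference in WT S was -4.77 (-8.81 to -0.66), and in the other lists it was 1.12 (-4.38 to 6.67), -1.85 (-8.19 to 4.61) and -0.66 (-7.40 to 6.27). Members of WT S had a median coverage of 17 against 14 for the other calls, and the ratio fell with coverage in both: 2.92 and 3.02 at coverage 6 to 10, 2.41 and 2.46 at 11 to 24, 1.93 and 1.93 at 25 or more.

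An identification score of 20 or more was reached by 52 of 515, 50 of 361, 133 of 911 and 46 of 307 members, or 10.1%, 13.9%, 14.6% and 14.98%. Other calls followed by A or T reached it in 11.9%, 12.9%, 15.4% and 14.1%. The median IPD ratio was 2.39 (2.30 to 2.51), 2.42 (2.26 to 2.56), 2.31 (2.24 to 2.40) and 2.56 (2.51 to 2.76) in runs of 4. It was 2.54 (2.40 to 2.72), 2.51 (2.35 to 2.76), 2.37 (2.25 to 2.5) and 2.6 (2.43 to 3.23) in runs of 10 or more, higher in each list but with overlapping intervals. Runs of 5 had 2.59, 2.44, 2.4 and 2.3. At the edge of the rule, runs of 3 followed by A or T had medians of 2.40, 2.34, 2.32 and 2.33. The last A of longer runs before G or C had 3.09, 2.78, 2.92 and 3.27, from 24 to 42 calls a list.

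The estimated modified fraction, which the lists give only at coverage of 11 or more, split members by the base after the called adenine. Members followed by A, which lie inside their run, had a median of 47.9% (interval of the median 44.3% to 55.4%), 47.9% (45% to 52%), 46% (43.5% to 48.8%) and 55% (50.3% to 63.1%). Members followed by T, the last A of their run, had 94.7%, 98.5%, 89.3% and 100%, from 23, 15, 65 and 20 sites. The same split held outside long runs: other calls followed by A had medians of 51.5%, 51.7%, 57.9% and 53.3%, and other calls followed by T had 81.85%, 77.05%, 86.55% and 87.3%. A comparison of members with calls of mixed next base would thus mostly compare next bases.

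With the next base held at A, members lay above their list's median fraction less often than other calls in WT S (22.5% against 37.8%, -15.3 points, -19.3 to -11.0) and in KO L (31.1% against 39.2%, -8.06, -15.6 to -0.11). For WT L the difference was -2.41 (-8.99 to 4.42), and for KO S it was -2.3 (-10.1 to 6.09). Without dense windows these became -7.99 (-14.8 to -0.80) and -8.86 (-16.6 to -0.19), and KO L and WT S had -11.5 and -14.6, so all 4 intervals then excluded 0. At coverage under 25 they also did, with -7.73, -14.4, -15.8 and -11 points. Calls with a score of 30 or more gave differences above 0 for each list but WT S (3.91, 4.005 and 9.77). This comparison was chosen after its values were seen. In WT S the median fraction before A was 59.3% in runs of 2, 56.2% in runs of 3, 46% in runs of 4, 50.1% in runs of 5, 46.9% in runs of 6 to 9 and 42.1% in runs of 10 or more. For the same classes WT L had 52.6%, 49.95%, 43.35%, 59.05%, 51.5% and 47.8%. KO L had 55.05%, 46.5%, 50.3%, 48.6%, 47.4% and 45.8%. KO S had 58.5%, 45.65%, 57.1%, 62.45%, 50.1% and 51.4%, so the lists shared no order by run length.

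**Figure D5:**
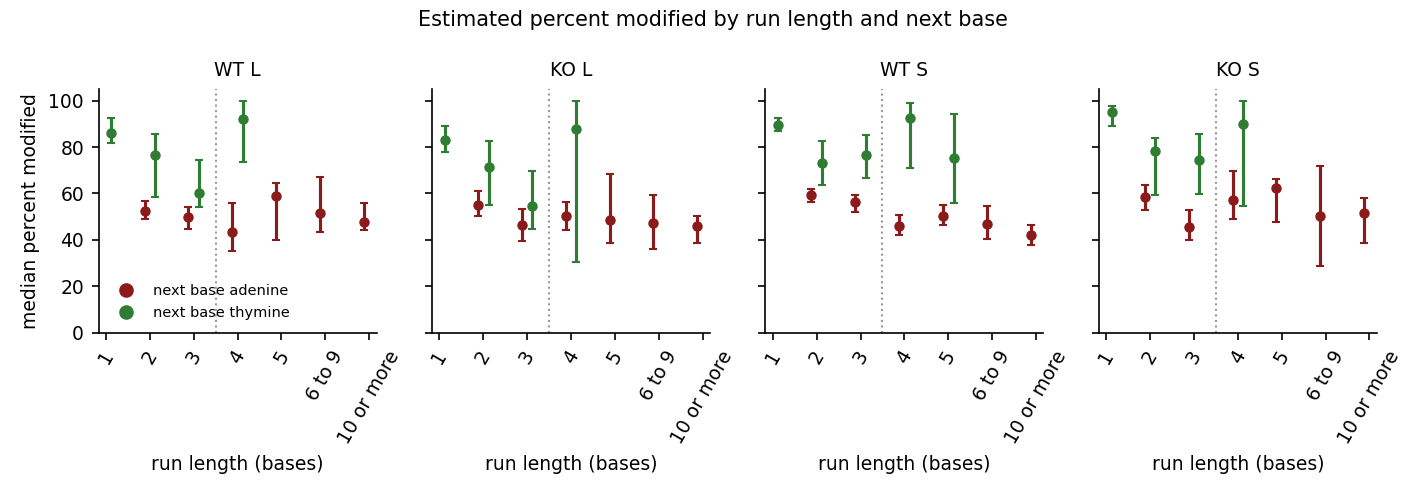
Median estimated percent modified (y axis, bars are exact 95% intervals of the median) by run length in bases (x axis) for calls followed by adenine and by thymine, in each list, for classes of 6 or more sites. Members are right of the dotted line; calls followed by thymine lay above those followed by adenine in each class that both fill.

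Few members recurred between lists. Of the 2049 positions, 2023 were called in a single list, 13 in 2, 7 in 3 and 6 in all 4. Dense windows held 24 of the 26 recurrent positions, which is 24 of their 133 member positions (18.05%, exact interval 11.9% to 25.6%), while other calls followed by A or T recurred there at 197 of 599 positions (32.9%, 29.1% to 36.8%). Outside dense windows 2 of 1916 member positions recurred (0.104%), beside 8 of 8035 other positions (0.0996%). Of the 23 runs with a member in 2 or more lists, 22 lay inside dense windows. The same adenine was called in different lists in 21 of the 23.

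The 2 recurrent positions outside dense windows were the first and 3rd A of the same run of 5 on chromosome 9, printed first above, within the lncRNA gene Gm33838. At the first A (35305292, plus strand) the modified fraction was 63.6% in WT L (the caller's bounds 54.8% to 72%, coverage 425), 61.4% in KO L (54.2% to 69.5%, coverage 550), 64.1% in WT S (60% to 69.1%, coverage 1509) and 66.3% in KO S (60.5% to 72.2%, coverage 986). At the 3rd A (35305294), 2 bases on, it was 21.4%, 17.3%, 28.5% and 28.1% at near-equal coverage. In each list the caller's bounds of the 2 adenines did not overlap, and WT and KO overlapped at both. The first A had the highest score of any member in all 4 lists, 167, 176, 237 and 255, with IPD ratios of 2.31, 2.29, 2.32 and 2.47. The coverage was far above the list medians, and 19 of the 30 words of 12 bases in this context also occurred in contexts of dense windows, and whether all reads come from this locus was not tested.

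The other positions called in 4 lists lay close together in the dense window on chromosome 14, outside any listed gene. At 19418047 (minus strand, first A of a run of 4) the modified fraction was 19.9%, 35%, 26.2% and 19.6% at coverage 445, 417, 828 and 432. KO L was highest there and KO S lowest, so the genotypes had no common order in the 2 parts. In L the bounds did not overlap, with KO higher (28.1% to 43.2%, against 13.6% to 25.9% in WT). In S they overlapped (21.6% to 31.3% in WT, 14.3% to 26% in KO). At 19417665 (3rd A of a run of 6) the modified fraction was 20.9%, 22.9%, 23.2% and 14.8%, and at 19419093 (second A of a run of 4) 14.3%, 24.7%, 34.6% and 31.5%. At 19418147 (first A of a run of 6) it was 21.5%, 5.1%, 11.7% and 4.0%, lower in KO than in WT in both parts, with bounds of 14.6% to 27.4% and 2.3% to 8.3% in L and of 8.1% to 15.2% and 1.5% to 7.3% in S. These bounds did not overlap between genotypes in either part, and the site was singled out after its values were seen. Its IPD ratios were 1.44, 1.33, 1.3 and 1.27, and its scores 38, 25, 25 and 20, where 20 is the lowest score listed. Dense-window members as a group had median modified fractions of 22.45%, 25.95%, 18.4% and 19.4%, against 57.6%, 54.4%, 50.4% and 63.1% for members elsewhere, and median coverage of 90, 121, 137 and 92.5 against 11, 12, 16 and 12.

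A run of 10 or more held several called adenines more often than a run of 4 to 9, although each class gave a similar number of such runs. Among runs of 10 or more with a member, 15 of 92, 8 of 60, 33 of 138 and 7 of 35 held 2 or more, or 16.3%, 13.3%, 23.9% and 20%. Among runs of 4 to 9 the numbers were 13 of 392, 9 of 280, 31 of 692 and 5 of 259, or 3.32%, 3.21%, 4.48% and 1.93%. Longer runs have more adenines to call, and the 2 classes were not set against that number. In long runs, neighbouring called adenines were 2 bases apart more often than 1: of 85 such pairs over the 4 lists, 8 were at distance 1, 29 at distance 2, 9 at distance 3, 8 at distance 4 and 31 farther apart. The 8 pairs at distance 1 were all in WT S, and distance 2 had 4, 6, 16 and 3 pairs. In runs of 4 to 9 distance 1 led, with 32 of 61 pairs against 21 at distance 2.

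The runs with the most called adenines are among those behind the 85 pairs, and most of them held calls 2 bases apart. In the run of 26 in Mtcl1, a microtubule crosslinking factor gene, KO L had calls at the 4th, 6th, 14th, 16th and 19th A, with IPD ratios of 2.06, 2.35, 2.92, 3.76 and 2.35 at coverage 21, 22, 18, 14 and 8. In the run of 28 in Smtnl1, which encodes a smoothelin-like protein of muscle, WT S had calls at the 7th, 9th, 15th and 17th A, with ratios of 2.78, 1.92, 2.06 and 3.10 at coverage of 26 to 33. In the run of 17 in Elac2, which encodes an enzyme that trims the 3′ ends of tRNAs, WT S had calls at the 2nd, 4th, 6th and 10th A, with ratios of 2.45, 4.13, 3.4 and 3.85. In the run of 22 on chromosome 13 the called places were 1, 9, 11 and 13. In the run of at least 42 on chromosome 8, WT S had calls at places 3, 7, 8, 13 and 22, with ratios of 5.47, 5.45, 3.53, 2.89 and 4.53, all at coverage 8, and none of these calls was 2 bases from its neighbour. These runs were chosen for their number of calls, none was called in a second list, and coverage was lowest at the last called A in the Mtcl1, Smtnl1, Elac2 and chromosome 13 runs.

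Apart from the chromosome 9 run, the strongest members in short runs outside dense windows had high modified fractions at modest depth. The run of 4 in D030045P18Rik was called at its first A in WT S with a score of 56, an IPD ratio of 3.73 and a fraction of 87.5% (bounds 61.4% to 100%) at coverage 29. The run of 6 on chromosome 10 was called at its second A in WT S with a score of 43, a ratio of 3.01 and a fraction of 88.2% (47.6% to 100%) at coverage 22. Their identification scores were low, 5 and 4. Among the longest runs, the run of at least 42 on chromosome 8 had scores of 21 to 30. The run of 30 in Nipal1, a magnesium transporter gene, had a score of 20 at coverage 6, and the run of 30 on chromosome 11 had scores of 24 and 21 at its 10th and 12th A at coverage 13 and 7.

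Members lay within genes slightly more often than other calls when all lists were joined. Exons and introns were not told apart here. The shares were 50.5%, 43.2%, 49.7% and 50.8%, against 45.5%, 44.1%, 46.8% and 43.2% of other calls followed by A or T. Almost none of these calls inside dense windows lay in a gene. Outside dense windows the shares were 55.3%, 49.2%, 53.4% and 54.4%, against 50.8%, 50.04%, 51.05% and 49.4%. The exact interval of the members held the share of the other calls in each list there, whereas over all calls the member share was higher beyond it in WT L and KO S. Over distinct positions of the 4 lists outside dense windows it was 53.2% for members (50.9% to 55.4%) and 50.5% for other calls (49.4% to 51.6%). Members in runs of 10 or more there were in genes in 58.2% of 407 positions (53.3% to 63.1%), and those in runs of 4 or 5 in 52.2% of 1170 (49.3% to 55.1%), and these intervals overlap.

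In genes member positions lay slightly more often on the strand opposite to the gene. Of 742 distinct member positions in genes of known strand, 408 were on the opposite strand (54.99%, exact interval 51.3% to 58.6%), against 49.7% (47.9% to 51.5%) of 2912 other positions. By list the member shares were 58.9%, 51.7%, 53.2% and 56.5%, and only the interval of WT L (51.8% to 65.8%) excluded an even split, while the other calls had 46.05%, 48.9%, 49.8% and 54.7%. Members in runs of 10 or more had 96 of 160 on the opposite strand (60%, 51.97% to 67.7%). Positions in 1 run share a strand, so they are not independent here. The Mtcl1 run gave 5 opposite positions and the Elac2 run 4, while the Smtnl1 run gave 4 on the strand of its gene. Strand was not counted by run.

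Member positions were spread over 879 genes outside dense windows, of which 136 had 2 or more and 14 had 4 or more. The 10 genes with the most held 4 to 6 positions, mostly from 1 list. Pdzd2, which encodes a PDZ-domain protein, had 6 positions in 3 runs, all in WT S. Mtcl1 had 5 in KO L, and Smtnl1 and Elac2 had 4 each in WT S, all within the single runs described above. Arid4a, which encodes a chromatin-associated protein that binds the retinoblastoma protein, had 4 in 1 run of 24 in WT S, and the unconventional myosin gene Myo1d had 4 in 2 runs of 8 to 11 in WT S. Sox6, a transcription factor gene, had 4 in 2 runs of 7 to 10, all in WT L.

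Only 3 of these 10 genes had members in more than 1 list. The cation channel gene Trpc4 had 3 in WT L and 1 in KO L, in runs of 5 to 9. The axonemal dynein gene Dnah7c had 2 in WT L, 1 in KO L and 1 in WT S, all opposite to the gene, in runs of 4 to 27. The transcription factor gene Zfhx3 had 3 in KO L and 1 in WT S, in runs of 4 to 15. Long genes are favoured by this count, and the numbers are too small to set genotypes against each other.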

How the data were processed

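The deposited lists give, for each called adenine, a position and strand on mm10 (per the submitters' processing notes), its 41-base context, and 5 values by the authors' caller: a score, an identification score, coverage (depth as a signal at that base), the IPD ratio (observed over predicted pause) and, at coverage of 11 or more, an estimated modified fraction with bounds. No source used here gives the caller, the aligner, the filters or the scale of the scores. The deposited lists hold only calls with a score of 20 or more and coverage of 6 or more. The authors put both replicates of a group into 1 list. The labels describe the replicates as repeated sequencing, so they may be technical.

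Members were found by sequence in the 4 lists. Shares have exact Clopper-Pearson 95% intervals, differences of shares Newcombe 95% intervals and medians order-statistic intervals, all for counting error only. Intervals of ratios to nearby adenines take the nearby share as exact. Differences of differences combine the 2 Newcombe intervals. With 1 list per group no test was made. The computations were checked on simulated data. Positions were placed in genes by a RefSeq table of GRCm38.p6 (49943 genes, 27025 with a strand); exons and introns were not analysed here. Named sites were those called in 3 or 4 lists (at most 6), the 2 highest scores and 2 longest runs of each list, at most 5 runs with the most called adenines, and the highest score outside dense windows for runs of 4, 5 and 6. Named genes were the 10 with the most member positions outside dense windows, ties by members per kb. Members, lists and rules were chosen with earlier results of these data known. Python 3.11.15, numpy 2.4.6, pandas 2.3.3, scipy 1.17.1 and matplotlib 3.10.9 were used. Alternatives changed the score, coverage, run length, next base, background adenines and treatment of dense windows.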

Additional observations from a re-analysis of the deposited data

Results flagged for a closer look

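The KO minus WT difference in the share of calls inside adenine runs differed between the DNA parts by the interval of the difference itself. It was -1.48 percentage points in L and -3.65 in S, so S minus L was -2.17 points (interval -4.17 to -0.16). Outside dense windows it was -1.74 (-3.87 to 0.39), and among calls followed by A or T -2.41 (-5.49 to 0.69), and both intervals include 0.

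At coverage of 25 or more the same comparison gave -2.59 points in L and -9.53 in S, so S minus L was -6.94 points (-12.4 to -1.30). Outside dense windows the differences at this coverage were -8.34 in L and -9.84 in S, and S minus L was -1.50 (-13.0 to 10.1). These intervals cover counting error only, and the spread between libraries is unknown.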

How the results depend on the processing

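No paired analysis was possible because both replicates of a group share 1 list, and for the same reason no replicate was left out. Of 248 alternative values, 140 kept their direction and their side of 0, or stayed within the main interval; for those below the cause was not tested. Values follow the order of the report; where 1 list is passed over it is named. Depth limits all of them, since bases without a call have no coverage here.

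At a score of 30 or more KO minus WT in the member share was 0.349 in L and -2.09 in S, and S minus L in KO was -2.73. The ratio to nearby adenines was 0.556, 0.525, 0.577 and 0.408, runs of 6 or more held 28.8%, 26.1%, 30.9% and 22.03%, and the first A held 34.3% in WT S. The IPD difference between members and other calls was -14.7 and 0.148 for the L lists (WT, KO), and the modified-fraction difference 3.91, 4.005 and 9.77 (all but WT S).

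At coverage of 25 or more S minus L in WT was 1.44. The ratio was 0.558, 0.414, 0.769 and 0.276, the IPD difference -12.4, -14.7 and -4.88 (all but KO S), and the first-A share 33.3%, 35.7% and 33.5%. Runs of 6 or more held 20.8%, 17.9% and 23.7% (all but WT S), and the modified-fraction difference in KO L was 11.4. At coverage under 25 the ratio was 1.12, 1.10, 1.01 and 0.927, and the IPD difference in WT L -0.264.

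At an identification score of 20 or more KO minus WT was 1.08 in L and -2.11 in S, and S minus L 0.166 in WT and -3.02 in KO. The ratio was 0.572, 0.553, 0.649 and 0.550, runs of 6 or more held 34.6%, 30%, 46.6% and 36.96%, and the IPD difference in KO S was 10.8.

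Without dense windows the ratio was 1.16, 1.11, 1.11 and 0.944, and the IPD difference in WT L -0.499. With 1 call per 1 kb the IPD difference was -0.709 and 0.461 for the L lists, and the ratio 0.948 and 0.797 for the KO lists. With each context counted once they were -0.446 in WT L and 0.996 in WT S.

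With runs of 3 or more S minus L in WT was 0.327, the IPD difference -2.84, -8.09 and -10.3 (all but WT S), the first-A share 36.1%, 34%, 37.4% and 33.2%, and the ratio 0.959, 1.00 and 0.865 (all but WT L). With runs of 5 or more the ratio was 1.35, 1.15, 1.15 and 0.858, and the first-A share 19.9%, 17.96% and 19.96% (all but KO S). With any next base the IPD difference was -3.76, -6.32 and -5.80 (all but WT S), and the ratio in WT S 0.859.

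The ratio was 0.681, 0.624, 0.661 and 0.560 with the called A's own run among the background adenines, 1.08, 0.955, 1.06 and 0.791 with both strands, and 0.892 in WT L and 0.829 in WT S with adenines 10 or more bases away. Against all other calls the IPD difference was -5.85, -7.31 and -8.45 (all but WT S).

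Alternatives chosen after seeing the data gave, at a score of 30 or more without dense windows, KO minus WT of -0.610 in S and ratios of 0.815 in WT S and 0.854 in KO S. At coverage of 25 or more without dense windows the ratio was 1.81, 1.67 and 0.841 (all but KO L). Among calls followed by T the IPD difference was -4.32 and 7.47 for the S lists.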

Other observations

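On the X chromosome lay 7 of 911 members in WT S (0.768%, exact interval 0.309% to 1.58%), against 158 of 6231 other calls of that list (2.54%, 2.16% to 2.96%). In the other lists members and other calls had 2.33% and 2.30% (WT L), 2.49% and 2.61% (KO L) and 1.63% and 2.35% (KO S). This value was chosen after it was seen, among all chromosomes, and the difference between lists was not tested.

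A call on the opposite strand lay within 10 bases of 3.50%, 5.54%, 3.62% and 2.61% of the members of the 4 lists, in the order of the report, against 3.38%, 3.03%, 3.76% and 3.04% of the other calls.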
